A study of Homo sapiens with 12 samples.

Results

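The genes described here are the 5 enzymes of the methionine salvage cycle, MTAP, MRI1, APIP, ENOPH1 and ADI1, and 5 enzymes of polyamine metabolism, AMD1, ODC1, SRM, SMS and SAT1. They were taken by name as pathway members and matched to the array through the platform annotation, which gives these 10 genes 14 probes. A probe was kept when its detection p-value was under 0.01 on at least 3 of the 12 arrays, and all 14 passed, among 18152 kept probes of 47318 on the array. The dimmest of them, ILMN_1806828 for MRI1, was detected on 8 arrays, and the other 13 on all 12. Measured values entered the choice in 2 ways. Probes were selected on detection, and the pathway was chosen with APIP already seen among the genes lowered most by the hairpin in each line. The hairpin differences of APIP are therefore given below as a description, without a p-value.

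The study asked how expression changes in human cell lines when NCSTN, which encodes nicastrin, a subunit of the membrane protease gamma-secretase, is knocked down. The 4 groups had 3 Illumina BeadChip arrays each: HEK293 cells, an embryonic kidney line, with a lentiviral short hairpin against NCSTN (A08 in the sample titles) and HEK293 cells with a pLKO hairpin against luciferase, then HEK001 cells, a keratinocyte line, with the same NCSTN hairpin and with the same luciferase control hairpin. All cells, controls included, were infected with lentivirus in polybrene at 10 µg/mL, changed to fresh medium after 24 h and kept under puromycin for about 2 weeks, at 2 µg/mL for HEK293 and at a labelled 0.5, with an incomplete unit, for HEK001. The lines also differ in medium, since HEK001 was grown in a serum-free keratinocyte medium and HEK293 in a medium with serum. Only 1 NCSTN hairpin was used, so that effects of losing nicastrin and effects of this hairpin on other transcripts cannot be told apart. The labels do not tell whether the 3 arrays of a group stand for separate cultures, and the p-values therefore cover the scatter among these arrays, which may be technical.

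Methionine salvage recovers the sulfur and methyl group that polyamine synthesis would otherwise waste. Each time a propylamine group is passed from decarboxylated S-adenosylmethionine to putrescine or spermidine, methylthioadenosine is left behind. MTAP splits off its adenine, MRI1 isomerises the sugar phosphate that remains, APIP dehydrates it, ENOPH1 converts the product by enolisation and dephosphorylation to an acireductone, and ADI1 oxidises that to the keto acid from which methionine is made. On the polyamine side, ODC1 makes putrescine from ornithine, AMD1 supplies the decarboxylated donor, SRM makes spermidine and SMS makes spermine, while SAT1 acetylates both products for export or oxidation. ODC1 is a classic target of the transcription factor MYC, which binds the E-box CACGTG.

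The target of the NCSTN hairpin is shown because it is the sequence that sets the groups of a line apart by design. It is written 5′ to 3′ as the labels give it, and the gene lies on chromosome 1.
NCSTN hairpin target: gctctactgaatactctacat

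Promoter windows were taken from RefSeq sequences of GRCh38.p14, which hold 250 bases before and 50 after a gene's start, and all 10 genes matched. They are shown for the E-box, because MYC itself differed between the groups in HEK293 (below). CACGTG, which reads the same on both strands, was present in the windows of 5 of the 10 genes (ENOPH1, ADI1, MRI1, ODC1 and SRM). Over all genes of the table, 8.77% had a promoter with it. The GC content before the start was 66.4% to 82.4% in the members except MTAP (50%), beside a median of 58% over all promoters. The share with CACGTG was not adjusted for GC content. Capitals mark the E-box in the 30-base stretches that follow, each written 5′ to 3′ on the gene's own strand. The last line shows, for contrast, the 30 bases just before the start of APIP, whose whole window has no CACGTG.
ENOPH1, chr4:82430560-82430589 (+): tcaagggccgccccttttcctgccCACGTG
ENOPH1, chr4:82430364-82430393 (+): ggctcctttctgCACGTGccccgggcctct
ODC1, chr2:10448024-10448053 (-): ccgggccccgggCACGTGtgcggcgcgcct
SRM, chr1:11060200-11060229 (-): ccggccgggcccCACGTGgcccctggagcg
MRI1, chr19:13764274-13764303 (+): agtgggttcggcCACGTGgaatccgcgtcc
ADI1, chr2:3519752-3519781 (-): aggCACGTGcgatgcctacggtgagcttca
APIP, chr11:34916380-34916409 (-): cccgcccccgggctgccctcagcgccgcct

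The E-boxes nearest a start were those of ENOPH1 with its first base at -6 and of ODC1 at 6. ODC1 thus had a pair, and the printed one lay at -29. Both lay in the same ODC1 window, and the window of its other start had none. Those of SRM, MRI1 and ADI1 lay at -199, -236 and -247, and ENOPH1 had its other one at -214. Neither TGATGNAA, the response element of ATF4, nor GTGGGAA, the motif of the Notch effector RBPJ, was found on either strand in a window of the 10 genes. Over all genes of the table, 4.46% had a promoter with the ATF4 letters and 7.62% had one with the RBPJ letters. These are matches of letters within a fixed window and do not show binding, and a missing match says nothing about the factor.

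The labels were checked first with NCSTN itself. On the log2 scale of normalized intensity, NCSTN read 7.75, 7.79 and 7.91 in HEK293 with its hairpin, against 9.69, 9.85 and 9.83 with the control hairpin. In HEK001 it read 6.56, 7.01 and 6.86 with its hairpin, against 9.95, 9.98 and 9.80 with the control. The groups did not overlap in either line, and NCSTN fell by 1.98 log2 units (SE 0.119, limma adjusted p = 4.34e-07) in HEK293 and fell by 3.10 (SE 0.119, adjusted p = 4.79e-08) in HEK001. The effect in HEK293 minus that in HEK001 was 1.12 log2 units (SE 0.169, adjusted p = 0.000819), so the loss was deeper in HEK001. Arrays detected between 14818 and 16333 probes, and replicates of a group correlated across kept probes at Pearson's r between 0.9885 and 0.9936. The cells also matched their labels. The 5 listed keratinocyte marker genes with an annotated probe were KRT5, KRT14, KRT15, KRT6C and ITGB4. They were detected on every HEK001 array and on no HEK293 array. The 4 annotated HEK293 markers were detected on every HEK293 array and, apart from NEFL, on no HEK001 array.

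APIP, the dehydratase of the cycle, was the member lowered most in both lines. Probe ILMN_1793598 read 6.87, 7.09 and 7.53 log2 units in HEK293 with the NCSTN hairpin, against 9.32, 9.34 and 9.45 with the control hairpin. In HEK001 it read 7.50, 7.64 and 7.80 with the NCSTN hairpin, against 9.10, 8.97 and 9.11 with the control. In both lines every array with the hairpin lay more than 1 log2 unit below every control array. The other probe, ILMN_2128293, read 5.51, 5.89 and 5.67 against 7.71, 7.69 and 8.05 in HEK293, and 5.93, 6.03 and 6.12 against 7.44, 7.37 and 7.38 in HEK001, in each case with the NCSTN hairpin before the control.

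The difference for APIP was -2.20 and -2.13 log2 units by the 2 probes in HEK293 (SE 0.147 and 0.124), which leaves 21.7% and 22.9% of the control intensity. In HEK001 it was -1.42 and -1.37 (SE 0.147 and 0.124), or 37.5% and 38.8% of control. Among the 18152 probes ordered from the most lowered, the APIP probes stood at 10 and 12 in HEK293 and at 10 and 13 in HEK001. The effect in HEK293 minus that in HEK001 was -0.79 and -0.76 log2 units (SE 0.208 and 0.175), so APIP had the larger drop in HEK293 and NCSTN in HEK001. With median scaling in place of quantile normalization, this difference between the lines on the brighter APIP probe was smaller, at -0.61. The 2 probes moved together, with r = 0.986 over the 12 arrays after each line's mean was taken off.

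ENOPH1, the enolase-phosphatase that acts right after APIP, was reduced in both lines, and the size of the drop did not differ past the test. It read 8.77, 8.44 and 8.67 in HEK293 with the NCSTN hairpin, against 9.75, 9.63 and 9.77 with the control, and 8.58, 8.57 and 8.30 in HEK001 with the NCSTN hairpin, against 9.77, 9.58 and 9.62 with the control. The arrays with and without the hairpin were well apart in both lines. ENOPH1 fell by 1.09 log2 units in HEK293 (SE 0.116, limma adjusted p = 4.54e-05), to 47.0% of control, and by 1.17 in HEK001 (SE 0.116, adjusted p = 7.14e-05), to 44.3%. The effect in HEK293 divided by that in HEK001 was 1.06-fold, with a 95% interval from 0.829 to 1.36 (adjusted p = 0.76). ENOPH1 ranked 177 from the most lowered probe in HEK293 and 26 in HEK001. In all, 181 of 18152 probes were called lower in both lines. Of the probes called lower in HEK293, 9.37% were also lower in HEK001, beside 5.99% of all probes. Of those called lower in HEK001, 16.6% were also lower in HEK293, beside 10.6% of all probes. ENOPH1 and APIP, the latter known beforehand, were the only members among the 181 probes.

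MRI1, the isomerase before APIP, was called lower in HEK293 on 2 of its 3 probes and on none in HEK001. ILMN_1732089 read 9.87, 9.97 and 9.90 in HEK293 with the NCSTN hairpin, against 10.35, 10.39 and 10.61 with the control, without overlap. In HEK001 the same probe read 8.28, 8.12 and 8.19 with the NCSTN hairpin, against 8.02, 8.00 and 8.09 with the control. It fell by 0.54 log2 units in HEK293 (SE 0.0971, limma adjusted p = 0.00208), and its difference in HEK001 was 0.16 (adjusted p = 0.316). The difference between these effects was -0.70 (SE 0.137, adjusted p = 0.00412). ILMN_2410965 read 9.70, 9.93 and 9.78 against 10.23, 9.98 and 10.14 in HEK293, and 8.02, 7.91 and 7.87 against 7.66, 7.64 and 7.77 in HEK001, in each case with the NCSTN hairpin before the control. It gave -0.32 (adjusted p = 0.0458) in HEK293 and 0.24 (adjusted p = 0.155) in HEK001, and the effects differed by -0.55 (SE 0.145, adjusted p = 0.0188). Its HEK293 call was lost in 9 of 14 alternative settings. Among them were median scaling and the omission of replicate 1 or 3 of either hairpin, where the value lay between -0.31 and -0.26 and the adjusted p reached 0.153. The third probe, ILMN_1806828, gave -0.17 (adjusted p = 0.537) in HEK293 and -0.02 (adjusted p = 0.96) in HEK001, where it was detected on 1 of 3 arrays of each group.

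The ends of the cycle showed no called change. MTAP, which opens the cycle and is often lost in tumours together with its neighbour CDKN2A, read 8.48, 8.32 and 8.40 in HEK293 with the NCSTN hairpin, against 8.28, 8.08 and 8.38 with the control. In HEK001 it read 10.36, 10.24 and 10.21 with the NCSTN hairpin, against 10.11, 10.09 and 10.01 with the control. The differences were 0.16 (95% interval -0.06 to 0.38, limma adjusted p = 0.317) and 0.20 (-0.02 to 0.42, adjusted p = 0.233). The lower ends of these intervals lie far above the differences of APIP and ENOPH1. ADI1, the dioxygenase that closes the cycle, was dim and scattered, at 6.95, 6.22 and 6.27 in HEK293 with the NCSTN hairpin, against 6.41, 5.41 and 6.04 with the control. Its HEK001 values were 6.03, 6.09 and 6.28 with the NCSTN hairpin, against 5.61, 5.99 and 5.56 with the control. The means were 0.53 (SE 0.242, adjusted p = 0.149) and 0.41 (SE 0.242, adjusted p = 0.306) log2 units above control, and neither passed the test. Without the control array of replicate 1, the HEK293 difference of ADI1 was 0.76 and passed, at an adjusted p of 0.0496.

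ODC1, the enzyme that commits ornithine to polyamine synthesis, was lower with the NCSTN hairpin in HEK001 and not in HEK293. It read 11.53, 11.44 and 11.51 in HEK293 with the NCSTN hairpin, against 11.49, 11.42 and 11.38 with the control. In HEK001 it read 12.11, 12.08 and 12.15 with the NCSTN hairpin, against 12.79, 12.84 and 12.71 with the control. The HEK293 groups overlapped, and the HEK001 groups were narrow and separate. The difference was 0.07 in HEK293 (95% interval -0.12 to 0.25, limma adjusted p = 0.656), whereas ODC1 fell by 0.67 in HEK001 (SE 0.0853, adjusted p = 0.000428), to 62.9% of control. The effects differed by 0.73 log2 units (SE 0.121, adjusted p = 0.00142).

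SRM, the spermidine synthase, moved in opposite directions in the lines. With the NCSTN hairpin it read 9.71, 9.73 and 9.87 in HEK293, against 9.36, 9.48 and 9.34 with the control. Its HEK001 values were 10.17, 10.23 and 10.27 with the NCSTN hairpin, against 10.51, 10.55 and 10.58 with the control. Neither pair of groups overlapped. SRM rose by 0.38 in HEK293 (SE 0.0887, limma adjusted p = 0.00922), or 1.30-fold, and fell by 0.32 in HEK001 (SE 0.0887, adjusted p = 0.0324), to 80.0% of control. The effects differed by 0.70 (SE 0.125, adjusted p = 0.00232). The HEK001 call was lost in 8 of 15 alternative settings, among them the omission of any 1 of the 6 HEK001 arrays, with an adjusted p of up to 0.102, while the value stayed between -0.37 and -0.30.

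SAT1, the acetyltransferase that starts polyamine breakdown, was lower in HEK293 with the NCSTN hairpin. It read 13.04, 12.94 and 12.92 there, against 13.78, 13.81 and 13.99 with the control. The HEK001 arrays read 12.07, 11.82 and 11.60 with the NCSTN hairpin, against 11.52, 11.79 and 11.76 with the control, and overlapped. SAT1 fell by 0.89 in HEK293 (SE 0.126, limma adjusted p = 0.000364), to 53.8% of control, and the difference in HEK001 was 0.14 (95% interval -0.13 to 0.41, adjusted p = 0.528). The effects differed by -1.03 (SE 0.179, adjusted p = 0.00193), the widest gap between the lines among the 14 probes.

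AMD1 and SMS did not pass in either line. AMD1, which makes the aminopropyl donor, read 9.10, 9.30 and 9.31 in HEK293 with the NCSTN hairpin, against 9.55, 9.58 and 9.12 with the control, a difference of -0.18 (95% interval -0.47 to 0.12). In HEK001 it read 8.57, 8.56 and 8.43 with the NCSTN hairpin, against 8.63, 8.39 and 8.31 with the control, a difference of 0.07 (-0.22 to 0.37). For SMS, the spermine synthase, the differences by its 2 probes were 0.03 and 0.11 in HEK293 and -0.07 and -0.01 in HEK001. The 95% intervals lay between -0.29 and 0.31, and all 4 pairs of groups overlapped. Its brighter probe ranged from 11.05 to 11.24 in HEK293 with the NCSTN hairpin, against 10.98 to 11.25 with the control, and from 11.84 to 11.93 in HEK001 with the NCSTN hairpin, against 11.92 to 12.04 with the control.

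**Figure D1:**
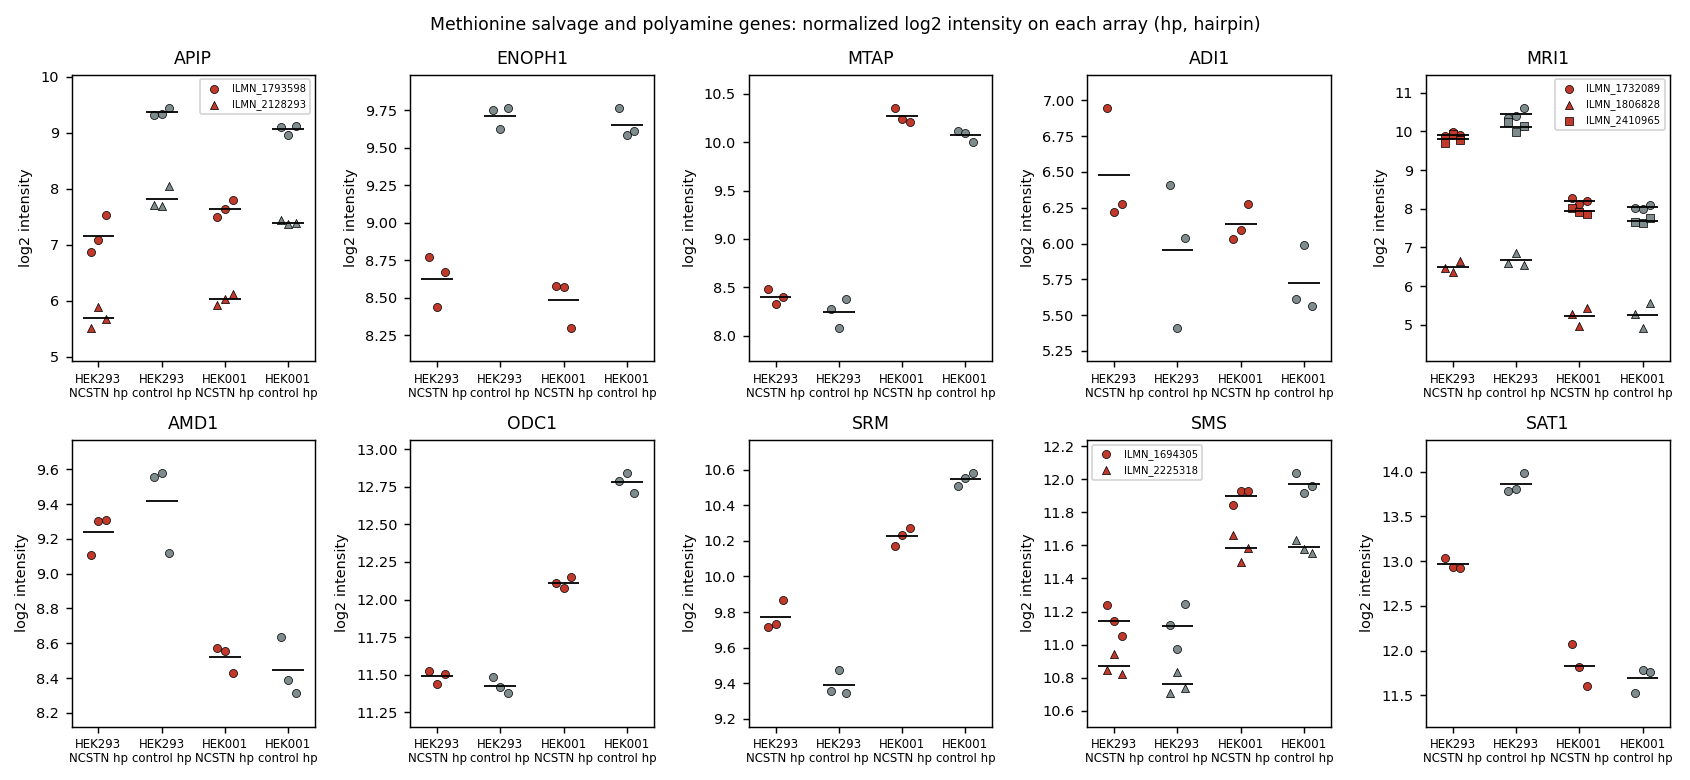
Normalized log2 intensity (vertical axis) of the 10 genes on each of the 12 arrays, 1 panel per gene; points are arrays, lines are group means (n = 3), colours separate NCSTN hairpin (red) from control hairpin (grey), and symbols separate probes of a gene. APIP and ENOPH1 sit lower with the NCSTN hairpin in both lines, ODC1 in HEK001, and SAT1 in HEK293.

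Counted over the set, 7 of 14 probes were called at an adjusted p under 0.05 in HEK293, 1 higher and 6 lower, where 20.5% of all 18152 probes were called (9.89% higher and 10.6% lower). In HEK001 5 of 14 were called, all lower, where 12.3% of all probes were (6.34% higher and 5.99% lower). The 2 APIP probes are in each count, also in that of the difference between the lines below, and were known beforehand, so nothing is read from these shares. The median difference of the 14 probes was -0.17 in HEK293 and -0.01 in HEK001, beside 0.01 and -0.01 over all probes. For the difference between the lines' effects, 7 of 14 probes passed, 2 higher and 5 lower in HEK293, where 19.4% of all probes did (9.35% higher and 10% lower). Groups that do not overlap were common as well, in 36.4% of all probes in HEK293 and 32% in HEK001. The adjusted p-values of the other members do not allow for a gene set chosen with results of these data in view.

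**Figure D2:**
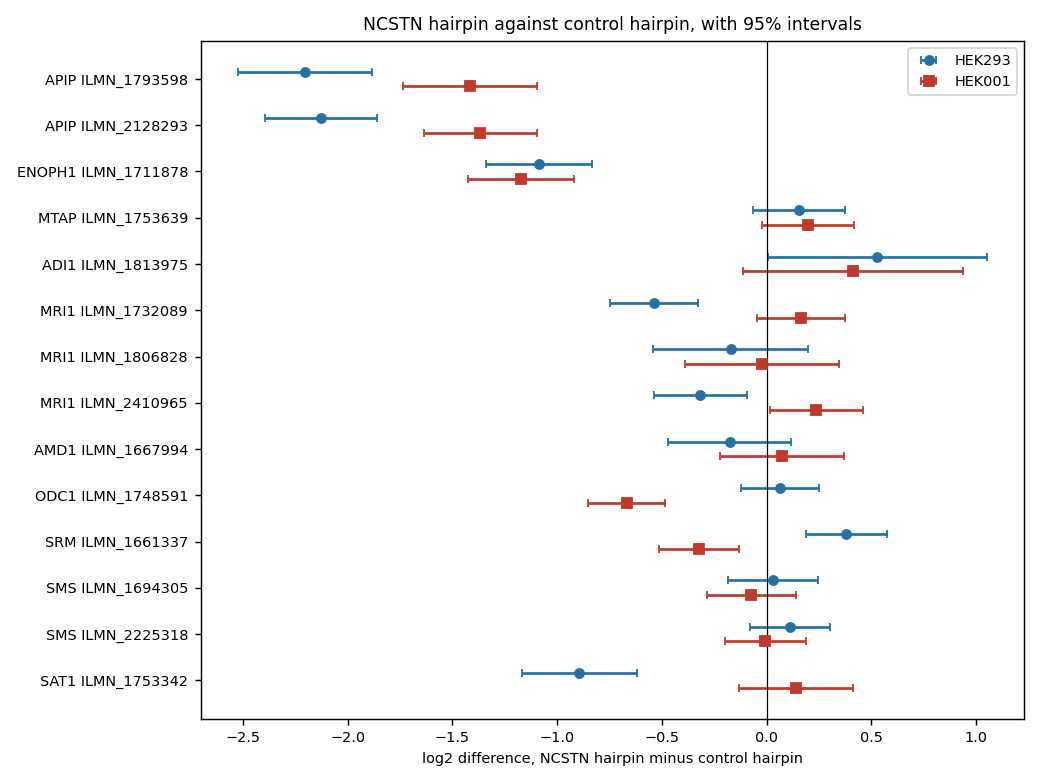
Log2 difference, NCSTN hairpin minus control hairpin (horizontal axis), for the 14 probes in HEK293 (blue circles, upper of each pair) and HEK001 (red squares, lower of each pair); bars are 95% intervals of the fit, and the vertical line is no difference. APIP reaches -2.20 in HEK293 and -1.42 in HEK001. The ENOPH1 intervals of the lines overlap. Those of ODC1, SRM, SAT1, both APIP probes and both brighter MRI1 probes do not.

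Markers of other cell types were measured beside these differences. In HEK293 the summed intensity of the fibroblast probes (COL1A1 and LUM) ran from 61.1 to 80.3 with the NCSTN hairpin, against 92.0 to 117.7 with the control. That of CD14, the only listed leukocyte marker with an annotated probe, ran from 86.5 to 102.7, against 129.1 to 136.8. PMEL was the only listed melanocyte marker with an annotated probe. It ran from 31.6 to 42.6 with the NCSTN hairpin, against 42.8 to 68.6 with the control. PMEL was detected on 1 of 3 HEK293 arrays with the NCSTN hairpin and on all 3 with the control. COL1A1 was detected on 2 and 3 arrays, and LUM, which failed the filter, on 1 in each group. The fibroblast and PMEL sums thus lie near background, and the presence of such cells was not tested. In HEK001 the keratinocyte markers summed to 46192 to 49585 with the NCSTN hairpin, against 38538 to 40702 with the control. The HEK293 markers summed in HEK293 to 7298 to 7858 with the NCSTN hairpin, against 8019 to 8970 with the control. The part of these shifts in the members' differences was not tested, and in RNA from whole cultures fewer cells of a type and less RNA per cell cannot be told apart.

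Between the lines themselves, in cells with the control hairpin, the members split by direction. MRI1 and SAT1 were much higher in HEK293, and AMD1 was higher, while MTAP, ODC1, SRM and SMS were lower in HEK293. From the control values given above, none of these genes overlapped between the lines, as was true of 70.7% of all probes. MRI1 was 5.33-fold and 5.37-fold higher in HEK293 by its 2 brighter probes (2.42 and 2.43 log2 units, limma adjusted p = 1.35e-10 and 2.18e-10) and 2.66-fold by the dim one, which was detected on 1 of 3 HEK001 arrays. SAT1 was 4.50-fold higher in HEK293 (2.17, SE 0.126, adjusted p = 5.84e-09) and AMD1 1.96-fold (0.97, SE 0.136, adjusted p = 3.02e-05). MTAP was 3.55-fold lower in HEK293 (-1.83, SE 0.101, adjusted p = 3.62e-09), and detected on all arrays of both lines. ODC1 was 2.56-fold lower (-1.35, SE 0.0853, adjusted p = 1.31e-08), SRM 2.23-fold lower (-1.16, SE 0.0887, adjusted p = 9.45e-08) and SMS 1.81-fold and 1.78-fold lower by its 2 probes (-0.86 and -0.83).

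The 2 enzymes that the hairpin lowered in both lines differed by at most 0.42 log2 units between the control cells. APIP was 0.31 (adjusted p = 0.0801) and 0.42 (adjusted p = 0.00829) log2 units higher in HEK293 by its 2 probes, and the dimmer probe passed the test. ENOPH1 differed by 0.06 (95% interval -0.19 to 0.31, adjusted p = 0.665) and ADI1 by 0.23 (-0.29 to 0.75, adjusted p = 0.414). Of the 14 probes 11 were called, 6 higher and 5 lower in HEK293, where 67.9% of all probes were called (36.7% higher and 31.2% lower). That share of members is near the background of a comparison in which most probes differ. The lines also differ in medium and puromycin dose, which cannot be told apart from the line here.

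**Figure D3:**
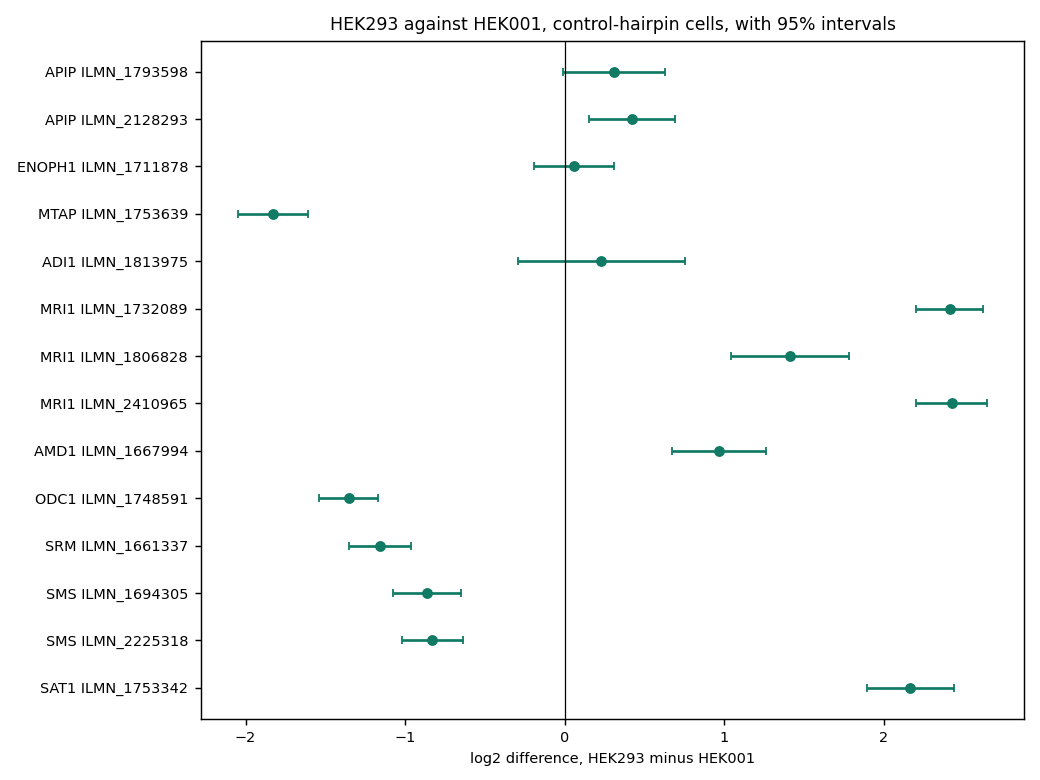
Log2 difference between control-hairpin cells of the lines, HEK293 minus HEK001 (horizontal axis), for the 14 probes, with 95% intervals of the fit. MRI1 and SAT1 lie more than 1 unit to the right of 0, AMD1 just under 1 unit to the right, and MTAP, ODC1, SRM and SMS lie to the left.

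Other genes were taken from a list of 45 that feed, drain or regulate the pathway, with the APIP partner APAF1 and the APIP neighbour PDHX. Of these 38 were annotated and 36 had a kept probe (53 probes). In HEK293 4 of these genes were called higher and 12 lower, by probe 5 and 16 of 53, beside 9.89% and 10.6% of all probes. The lower count includes the regulator MYC, by 2 probes. In HEK001 4 were higher and 2 lower, by probe also 4 and 2 of 53, beside 6.34% and 5.99%. The median difference of the 53 probes was -0.17 in HEK293 and 0.01 in HEK001, beside 0.01 and -0.01 over all probes. The list was chosen with earlier results of these data known, so nothing is read from these shares and medians in either line.

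In transsulfuration, which drains homocysteine away from methionine, CBS moved in opposite directions. It read 9.25, 8.96 and 9.06 in HEK293 with the NCSTN hairpin, against 10.28, 10.41 and 10.34 with the control, and fell by 1.26 (SE 0.104, limma adjusted p = 5.98e-06). In HEK001 it read 8.96, 9.08 and 9.01 with the NCSTN hairpin, against 8.38, 8.60 and 8.41 with the control, and rose by 0.55 (SE 0.104, adjusted p = 0.00463). The effects differed by -1.81 (SE 0.147, adjusted p = 1.17e-05). CTH, the enzyme that makes cysteine in the next step, fell in HEK293 by 0.70 on ILMN_2305112 and by 0.73 on ILMN_1777060, which was detected on 1 of 3 arrays with the NCSTN hairpin. The third probe, ILMN_2305116, gave -0.11 (adjusted p = 0.699) and, like ILMN_2305112, was detected on every array of that line. The call of ILMN_1777060 was lost without replicate 1 or 3 of the NCSTN hairpin or replicate 2 of the control (-0.67, -0.62 and -0.53). No CTH probe passed in HEK001.

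Transaminases finish salvage by turning the keto acid into methionine. Of those listed, GOT1 did not pass in HEK293 (-0.10, limma adjusted p = 0.474). KYAT1 was lower there by 0.90 (SE 0.122, adjusted p = 0.00027) and KYAT3 by 0.62 on 1 of its 2 probes (SE 0.114, adjusted p = 0.00219, the other 0.05). NIT2, an amidase that acts on the keto acid of glutamine released by transaminases such as KYAT1 and KYAT3, rose in HEK293 by 0.48 (SE 0.09, adjusted p = 0.00269). None of the 5 kept genes listed for the end of salvage (KYAT1, KYAT3, NIT2, GOT1 and APRT) passed in HEK001. In the methionine cycle 3 of 7 kept genes were lower in HEK293 (AHCYL2, MAT2B and AHCYL1, by 0.53, 0.38 and 0.31). By probe these were 3 of 10, beside 10.6% called lower over all probes, and MAT2B was called on 1 of 3 probes, the others giving 0.11 (adjusted p = 0.74) and -0.15 (adjusted p = 0.419). In HEK001 AHCYL2 was higher by 0.54 and MTRR lower by 0.50 on 1 probe, the other giving -0.39 (adjusted p = 0.171). AHCYL2, a relative of the S-adenosylhomocysteine hydrolase, thus passed with opposite signs, and the effects differed by -1.07 (SE 0.188, adjusted p = 0.00218). Its HEK293 call was lost without replicate 1 or 3 of the NCSTN hairpin (-0.45 and -0.49), and its HEK001 call without replicate 1 or 3 of either hairpin (0.48 to 0.54). MAT2A, the catalytic subunit that makes S-adenosylmethionine, did not pass in either line (0.23 in HEK293 and 0.01 in HEK001).

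For polyamine transport, SLC3A2, the heavy chain shared by several amino acid exchangers and implicated in polyamine export, rose most. Its brighter probe read 10.82, 10.90 and 10.72 in HEK293 with the NCSTN hairpin, against 9.56, 9.47 and 9.32 with the control, and rose by 1.36 (SE 0.0965, limma adjusted p = 1.56e-06), while the other rose by 1.76 (SE 0.211, adjusted p = 0.000112). In HEK001 the brighter probe differed by 0.09 (adjusted p = 0.621) and the other by 0.71 (adjusted p = 0.0468), a call that was lost without any 1 of the 6 HEK001 arrays (0.50 to 0.81). SLC18B1, a vesicular polyamine transporter, fell in HEK293 by 0.75 (SE 0.116, adjusted p = 0.000704). ARG2, which makes ornithine from arginine, fell there by 0.51 (adjusted p = 0.00691), and ALDH18A1, which serves ornithine and proline synthesis, rose by 0.47 (adjusted p = 0.00867).

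Hypusine synthesis uses spermidine to modify the translation factor EIF5A, and its enzymes went opposite ways in HEK293. DHPS, which attaches the group, fell on all 3 probes by 0.89, 0.77 and 0.60 (limma adjusted p = 0.000117, 0.000128 and 0.0209), and DOHH, which completes hypusine, rose by 0.64 (adjusted p = 0.0172). The weakest DHPS call was lost without replicate 1 of the NCSTN hairpin or replicate 3 of the control (-0.49 and -0.45), and that of DOHH without replicate 2 of the NCSTN hairpin or of the control (0.59 and 0.43). In HEK001 neither enzyme passed, and EIF5A2, a second EIF5A gene, fell by 0.54 (adjusted p = 0.0415), a call lost in 10 of 15 alternatives, the omission of any array but replicate 1 of the control among them (-0.58 to -0.49). In polyamine breakdown, SAT2, a relative of SAT1, fell by 0.44 in HEK293 (adjusted p = 0.00922). PAOX, the acetylpolyamine oxidase, gave opposite values on its 2 dim probes in HEK001, a called 0.79 (adjusted p = 0.0226) and -0.61 (adjusted p = 0.102). The call was lost without any 1 of the HEK001 arrays except replicate 2 of the control (0.61 to 0.82).

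The regulators of ODC protein did not pass in either line. These are the antizymes OAZ1 and OAZ2, which send ODC to the proteasome, and the antizyme inhibitors AZIN1 and AZIN2, which counter them. OAZ1 differed by -0.03 in HEK293 and 0.01 in HEK001, OAZ2 by -0.28 and 0.01, and the brightest AZIN1 probe by -0.08 and -0.15. AZIN2 was not detected on any HEK293 array. MYC, the activator of ODC1, read 10.60, 10.71 and 10.79 in HEK293 with the NCSTN hairpin, against 11.84, 12.03 and 12.00 with the control, on the brighter of its 2 probes. It fell in HEK293 by 1.26 and 1.30 on the 2 probes (limma adjusted p = 6.42e-06 for both), and differed in HEK001 by 0.21 (adjusted p = 0.218) and 0.20 (adjusted p = 0.27). The effects differed by -1.47 and -1.50 (adjusted p = 5.67e-05 and 6.24e-05). ODC1 was called lower in HEK001 and not in HEK293, and a part of MYC in these differences was not tested. PDHX, the RefSeq gene next to APIP on chromosome 11, gave -0.34 (adjusted p = 0.157) in HEK293 and -0.35 (adjusted p = 0.167) in HEK001.

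**Figure D4:**
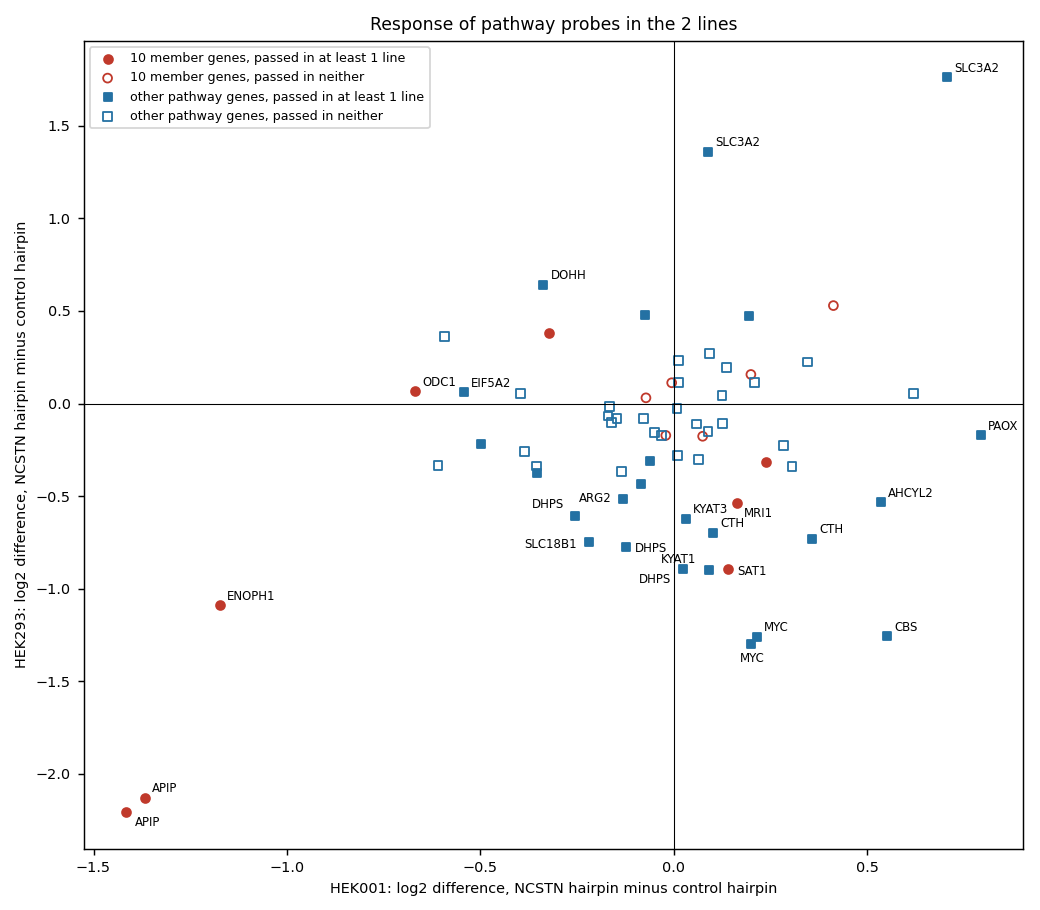
Log2 difference, NCSTN hairpin minus control hairpin, in HEK001 (horizontal axis) and HEK293 (vertical axis) for the probes of the 10 genes (red circles) and of the other pathway genes (blue squares); filled symbols passed the test in at least 1 line, and those with a difference of at least 0.5 in a line are named. APIP and ENOPH1 stand alone at the lower left, SLC3A2 lies at the top, and CBS, MYC and SAT1 lie low on the HEK293 axis and to the right of 0 on the HEK001 axis.

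Over the 12 arrays, with each line's mean taken off, the named probe of another gene most like the brighter APIP probe was that of TMEM14A (r = 0.996), followed among other genes by NUDT11 (0.98), HSD17B4 (0.973), ME2 (0.971) and PRXL2C (0.966). Since they were picked for this likeness, their differences follow the pattern of APIP by choice. They include ME2, the mitochondrial malic enzyme, at -1.68 in HEK293 and -1.16 in HEK001, and HSD17B4, a peroxisomal beta-oxidation enzyme, at -0.62 and -0.40. ENOPH1 correlated with the brighter APIP probe at r = 0.931. These correlations are descriptions over arrays that share the same hairpin groups and normalization.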

How the data were processed

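RNA of 12 samples (100 ng each) was hybridised to Illumina arrays. Groups were taken from the sample titles; the source name reads HEK001 throughout, although titles and cell line entries give HEK293 for 6 samples. Per the file headers, the authors' deposited scanner table gives each probe's signal as a linear intensity, its detection p-value, the count of beads behind it and their error. The signal is background-subtracted but not normalized, with 27.07% to 29.12% of signals per array below 0. A table of log2 values for 21270 probes, also deposited by the authors, served as an alternative. GenomeStudio 2010 and R 3.0.2 appear in the submitters' processing notes without a step.

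Signals were background-corrected by normexp from the detection p-values (offset 16) and quantile normalized with neqc of limma 3.58.1 in R 4.3.3. A model of 4 group means was fitted with lmFit and eBayes (8 residual and 12.6 total degrees of freedom), with Benjamini-Hochberg adjustment over 18152 probes and calls at an adjusted p under 0.05. Adjusted p-values are limma's. The script was tested on simulated data. Each member probe averaged 10 to 41 beads per array, and precision is limited by 3 arrays per group. Gene names came from the platform annotation, with 16030 of 16040 singly annotated probes matched to RefSeq. The text names all members, NCSTN, other pathway genes called with a difference of at least 0.5, MYC, PDHX and the ODC regulators, and the 5 probes most like APIP. Pathway genes called below that size, MAT2A and GOT1 were named after their values were seen. Members and lists were chosen with earlier results of these data known. Alternatives changed background correction, normalization, probe filter, probes per gene, samples fitted, array weights, replicate block and each array in turn. Transcript and protein sequences were not used here.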

Additional observations from a re-analysis of the deposited data

Results flagged for a closer look

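The hairpin effect differed between the lines for MRI1, ODC1, SRM, SAT1 and NCSTN by the interaction term of the fit, which 19.4% of all probes passed. Differences are the effect in HEK293 minus the effect in HEK001 on the log2 scale. The reduction of NCSTN was smaller in HEK293 (1.12). APIP, whose effects were known when the genes were chosen, is given as a description, with -0.79 and -0.76 by its 2 probes. MRI1 (-0.70 and -0.55 by its 2 brighter probes) and SAT1 (-1.03) were called lower in HEK293 and not in HEK001. ODC1 (0.73) was called lower in HEK001 and not in HEK293, and SRM (0.70) was called higher in HEK293 and lower in HEK001. The depth of the knockdown, the medium and the puromycin dose all differ between the lines, and their part in these differences was not tested.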

How the results depend on the processing

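No named member changed direction with its call under any alternative: of 894 values recomputed for the member probes, 870 stayed on their side of the threshold, 19 lost a call and 5 gained one. For NCSTN and the other pathway genes, 756 of 799 stayed, 42 lost and 1 gained a call. Among values never called, 40 turned sign, at most 0.16 log2 units from 0. With median scaling in place of quantile normalization, the difference of the APIP effect between the lines on its brighter probe was smaller, at -0.61 against -0.79. Between the control-hairpin cells of the lines, the brighter APIP probe passed without background correction, with only the control arrays and with the replicate block. Counts over all probes in HEK001 ran from 1388 (without replicate 3 of the control) to 1640 when 1 array was left out, against 2239, and 1473 without replicate 2 of the control. The member counts then were 4 in HEK001 and 6 to 7 in HEK293. The ranges over all probes were 2799 to 3014 in HEK293, 2769 to 3161 for the difference of effects and 11543 to 11842 between the lines. With 1 probe per gene, 8046 genes and 7 members differed between the lines, since fewer features were tested.

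Same-numbered arrays did not deviate together (r from -0.04 to 0.07), beside r from -0.08 to 0.11 for arrays of different number. The labels do not tell whether the replicate numbers pair the samples, and so few pairs of arrays cannot decide it. With the replicate block, 3211 probes and 7 members were called in HEK293, 1578 and 4 in HEK001, 2810 and 6 for the difference of effects, and 12259 and 12 between the lines. The block ended the calls of SRM in HEK001 and of MRI1 ILMN_2410965 in HEK293 and for the difference of effects, and ADI1 passed in HEK293. ADI1, ILMN_1806828 of MRI1, PAOX, ILMN_1777060 of CTH and EIF5A2 are near background, where fold changes are compressed. The same holds for the dimmer APIP probe in cells with the NCSTN hairpin.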
